A study of Mus musculus with 2 samples.

Results

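The nuclei described here were those labelled Sst, the cortical interneuron class named after the neuropeptide somatostatin, in nuclei of mouse cortex sorted 7 days after a mild traumatic brain injury (mTBI). They were the 317 nuclei, of 8171 in the deposited table and 2580 in its neuron subset, to which the authors' mapping of that subset onto an annotated motor cortex reference gave the subclass Sst. The labels were made from the same counts that are compared below, so each test sets groups against each other that are in part defined by the genes tested.

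Both libraries came from one condition. The mice were Atf3-CreER:+/wt; SUN-SfGFP:+/wt, that is, they carried a tamoxifen-inducible Cre under the control of Atf3, a transcription factor of the neuronal injury response, and a Cre-dependent green fluorescent protein of the nuclear envelope. They were over 7 weeks old, received closed-skull mTBI, were given tamoxifen at 4 and 5 days post injury (dpi), and were sampled at 7 dpi. Nuclei positive for the reporter and for the DNA dye DRAQ5 were sorted from the ipsilateral cortex and sequenced by the 10x Genomics 3′ method. The male library pooled 4 animals and the female library pooled 4 others, and the public sex field of the female library reads male, against its title. The reporter marks any cell with Atf3 activity around the tamoxifen days and is not restricted to neurons. No uninjured library was analysed here, so no value below is a change with injury. With 1 library per sex, sex and depth cannot be told apart, and the p-values measure only the spread between these pools.

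Sst interneurons are inhibitory neurons that arise in the medial ganglionic eminence, as Pvalb (parvalbumin) interneurons do, while Vip, Lamp5 and Sncg interneurons arise in the caudal eminence. Many of them, the Martinotti cells, send axons to layer I and inhibit the distal dendrites of excitatory neurons. Their subtypes differ in the peptides they make, among them somatostatin, neuropeptide Y, dynorphin and corticotropin-releasing hormone.

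Nuclei with the Sst label carried general interneuron and Sst class markers, while the Sst transcript itself was almost absent. The male library held 174 Sst nuclei with 796051 unique molecular identifiers (UMIs, 1 per captured transcript) and a median of 3797 per nucleus. In the female library, 143 nuclei held 1437951 UMIs with a median of 9031. Sst nuclei were 12.6% of the male neuron subset (exact 95% binomial interval 10.9 to 14.5) and 11.9% of the female one (10.1 to 13.9), a difference within the counting error, which is the only error these intervals cover. Among inhibitory nuclei they were 50.3% and 42.2%, with overlapping intervals of 44.9 to 55.7 and 36.9 to 47.6. Of the 317 nuclei, 312 were also labelled Sst when the authors mapped all nuclei, while 4 were then labelled microglia and 1 Pvalb. Between the libraries 1 cell barcode was shared, and it was not of an Sst nucleus.

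A UMI of Gad1 or Gad2, the enzymes that make GABA, was present in 128 of 174 male nuclei (73.6%) and in 124 of 143 female nuclei (86.7%). For Gad2 alone the shares were 58.0% and 76.9%, and in microglia, which should lack it, 1.66% and 2.35% at median depths of 1298.5 and 3012.5 UMIs. With all nuclei cut down at random to 2300 UMIs (45 male and 3 female Sst nuclei were shallower and were left out), 45.0% and 47.9% of Sst nuclei held Gad2, beside 2.58% and 1.89% of microglia. At this equal depth the 2 Sst shares differed by less than their counting error. Sox6, a transcription factor of interneurons from the medial eminence, was found in 65.1% and 55.0% of thinned Sst nuclei, against 1.03% and 3.02% of microglia. The extracellular matrix protein gene Reln was found in 79.1% and 75.7%, and the synaptic vesicle priming gene Unc13c in 66.7% and 65.7%. Lhx6, the factor that specifies this lineage, was sparse at 8.53% and 6.43% of thinned nuclei, but microglia stood at 0% and 0.0592%. Without thinning, at least 1 of 7 interneuron genes (Gad1, Gad2, Slc32a1, Lhx6, Sox6, Elfn1, Grin3a) was detected in 169 male nuclei (97.1%) and 142 female nuclei (99.3%). At least 3 of them were detected in 59.2% and 81.1%. Among the 7, Slc32a1 was sparse, in 4 of 174 male Sst nuclei (2.30%, and 1.55% after thinning), and it was not among the genes tested below. Thinned male Pvalb nuclei held Gad2 in 34.9% and Sox6 in 54.7%, so not all of these genes are particular to Sst nuclei.

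Somatostatin UMIs occurred in 3 male nuclei of 174 (1.72%, interval 0.357 to 4.96) and in 0 of 143 female nuclei (interval 0 to 2.55). For the female library, 3 counts of the total, the limit used here for a count of 0, would be a share of 2.10%. Microglia held them in 0.118% and 0.214% of nuclei. The male Sst share was above that of male microglia (interval 0.0143 to 0.427), though the intervals overlapped. The female Sst share was below that of female microglia. Median depths of Sst nuclei and microglia differed (3797 and 1298.5 UMIs in the male library). Whether the Sst transcript exceeded background was not tested. Other markers of the class were low too: Cort, the somatostatin-related cortistatin, had no UMI in either library, and Calb1, which encodes calbindin, stood at 8.79 and 4.17 CPM (counts per 1e6 UMIs of the Sst sum). The reporter transcript was found in 5 and 8 Sst nuclei and in 12 and 49 microglia. Because Sst names the class, a stretch of its promoter is shown from RefSeq (GRCm38.p6, minus strand, chr16:23890874-23890903). It lies around a cyclic AMP response element, the palindrome TGACGTCA in capitals. In RefSeq the element starts 48 bases before the transcription start. The GENCODE vM21 annotation places the gene at chr16:23889573-23890958, so there the same stretch lies inside the gene.
Sst: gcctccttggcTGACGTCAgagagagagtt
The same 8 letters occurred in 588 of 32851 RefSeq promoters (1.79%) and in 2 of the 41 promoters found for the 4 identity lists used below (4.88%), those of Sst and of Th. The match is a description of the sequence only.

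**Figure D1:**
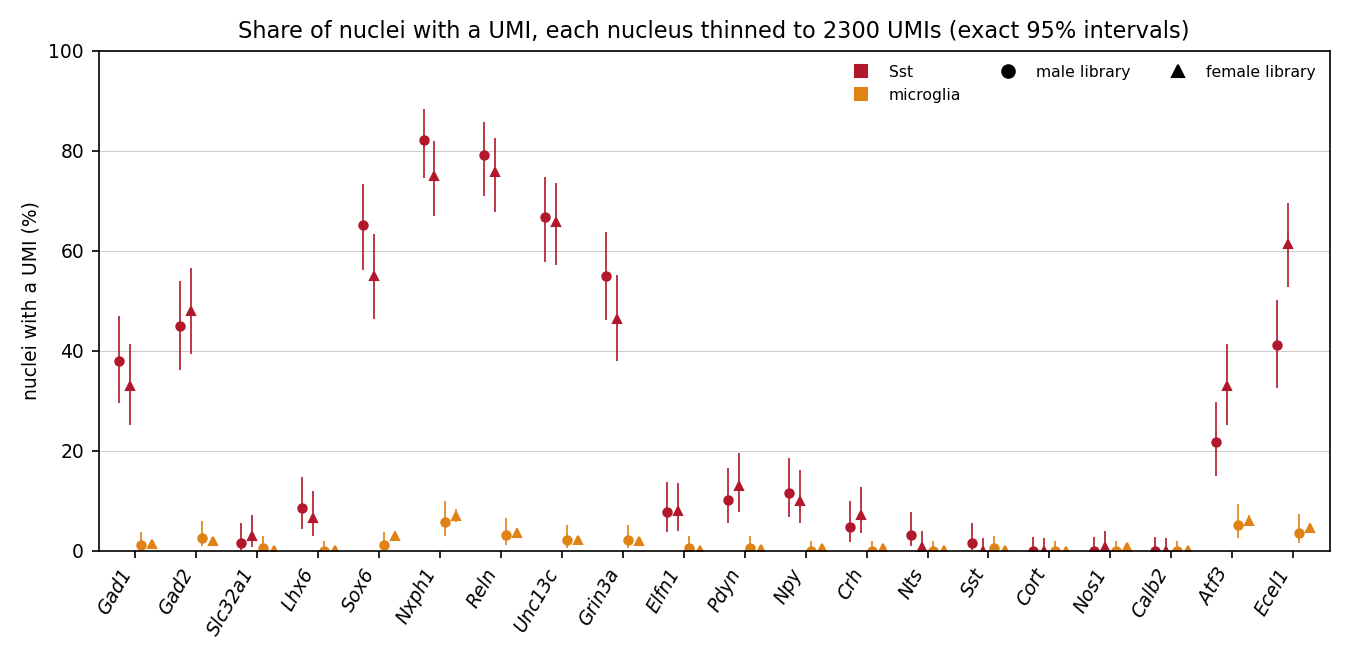
Share of nuclei with at least 1 UMI of each gene (percent, vertical axis) with all nuclei thinned to 2300 UMIs, for Sst nuclei (red) and microglia (orange) of the male (circles) and female (triangles) libraries, with exact 95% binomial intervals. Gad1, Gad2, Sox6, Nxph1, Reln, Unc13c and Grin3a lie well above the microglial level in both libraries, while Sst, Cort, Nos1 and Calb2 lie at or near 0%.

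For levels, the UMIs of the Sst nuclei were summed per library and set beside the sums of Pvalb nuclei (119 male and 150 female), of pooled Vip, Lamp5 and Sncg nuclei (53 and 46) and of 6 excitatory labels (1887 nuclei in all). Pairs of values are given as CPM of the male and then the female sum. Fold changes are on the log2 scale, from edgeR's quasi-likelihood test over 8676 genes with Benjamini-Hochberg adjusted p, and a gene is called at an adjusted p under 0.05. The standard error (SE) beside each is an approximation, the absolute log2 fold change divided by the square root of the F statistic of that test. In a sum, a lower level can come from fewer nuclei with the transcript or from less RNA per nucleus, and these cannot be told apart. CPM are not corrected for gene length, so levels are compared between groups and not between genes. All 3 comparisons use the same 2 Sst sums.

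Against Vip, Lamp5 and Sncg nuclei, Sst nuclei were marked by the lineage factors Sox6 and Satb1, by Crhbp and Pdyn, and by the synaptic genes Unc13c and Grin3a, while Adarb2, Prox1, Vip and Erbb4 were far lower. In all, 779 genes were called (8.98% of those tested), 365 higher (4.21%) and 414 lower (4.77%) in Sst nuclei. Sox6 stood at 595 and 469 CPM in Sst nuclei and at 0 and 10.6 CPM in Vip, Lamp5 and Sncg nuclei (log2 fold change 6.35, SE 0.45, adjusted p = 4.1e-09). Its 2 Sst values lay well above both others, and the gene spans chr7:115470872-116038796 on the minus strand (GRCm38, GENCODE vM21). Satb1, a chromatin organiser needed for the maturation of Sst interneurons, stood at 288 and 197 against 42.6 and 34.6 CPM (log2 fold change 2.75, SE 0.32, adjusted p = 3e-06). Lhx6 was at 25.1 and 25.7 against 0 and 2.66 CPM (log2 fold change 3.90, SE 1.03, adjusted p = 0.0217), a call that rested on few counts and was lost with DESeq2. Of 15 listed lineage genes, 11 were tested. Among these 11, 4 were higher and 2 lower, with a median log2 fold change of 0.86 beside 0.05 over all genes. The 2 lower ones were Dlx6os1, a noncoding transcript of the Dlx locus, and Erbb4, the neuregulin receptor. Erbb4 was at 44.0 and 89.7 CPM in Sst nuclei and at 3245 and 3348 CPM in the others (log2 fold change -5.47, SE 0.53, adjusted p = 2.47e-07), and microglia, which are not known for it, stood at 59.7 and 59.6 CPM.

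Both enzymes of GABA synthesis were measured at levels of the same order in Sst nuclei and the caudal classes, with Gad2 lower in Sst nuclei. Gad1 did not pass the test (249.99 and 202 against 166 and 247 CPM, log2 fold change 0.17, SE 0.30, adjusted p = 0.85). Gad2 was at 319 and 289 against 597 and 628 CPM (log2 fold change -0.92, SE 0.20, adjusted p = 0.00282). For Gad2 the groups did not overlap. Of 6 listed GABA genes, 5 were tested, and among these 2 were lower and none higher, with a median of -0.84.

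Of 16 class genes listed for Sst interneurons, 10 passed the filter on low counts and were tested. A gene high in Sst nuclei alone could pass it, so tallies of tested genes lean towards such genes. Among these 10, 7 were higher than in the caudal classes and 1 lower, with a median of 2.18. Unc13c, at chr9:73479422-73968966, was at 789 and 583 against 23.7 and 23.9 CPM (log2 fold change 4.91, SE 0.40, adjusted p = 2.72e-08). Grin3a, an NMDA receptor subunit, was at 469 and 392 against 75.8 and 7.98 CPM (log2 fold change 3.75, SE 0.42, adjusted p = 1.73e-06), with a wide gap between the 2 libraries of the caudal classes. Reln is also made by Lamp5 cells, and its difference was smaller, 977 and 947 against 341 and 381 CPM (log2 fold change 1.5, SE 0.28, adjusted p = 0.000977). Pde1a, a calcium-dependent phosphodiesterase, was at 768 and 736 against 180.0 and 250.1 CPM (log2 fold change 1.87, SE 0.29, adjusted p = 0.000103). The calls of Kcnmb4 and Lypd6, also among the higher members, rested on sums of the caudal classes with 0 CPM in the male library. Trpc4, a cation channel listed for the class, was the lower member, at 16.3 and 22.3 against 85.3 and 101 CPM (log2 fold change -2.14, SE 0.41, adjusted p = 0.00106). Elfn1, a postsynaptic organiser of facilitating inputs onto Sst cells, was at 69.1 and 65.4 against 9.47 and 39.9 CPM and was not called (log2 fold change 1.35, SE 0.55, adjusted p = 0.159).

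Some of the largest differences were against sums without a single UMI, where only a bound can be given. Crhbp, which encodes the binding protein of corticotropin-releasing hormone, was at 117 and 96.7 CPM in Sst nuclei and had no UMI in Vip, Lamp5 and Sncg nuclei of either library. Measured against 3 counts over that whole group (5.11 CPM), it was at least 20.3-fold higher (adjusted p = 8.41e-06, edgeR). Pdyn, the precursor of dynorphin, was likewise at 71.6 and 70.2 CPM against 0 and at least 13.8-fold higher (adjusted p = 0.00048, edgeR). In the same way the interferon-induced gene Ifit1 was at least 10.1-fold and the laminin gene Lama4 at least 6.31-fold higher. Spon1, a secreted matrix protein, was at 44.0 and 90.4 against 0 and 2.66 CPM (log2 fold change 5.35, SE 0.77, adjusted p = 4.96e-05) and the Wnt receptor Ror2 at 74.1 and 57.0 against 0 and 2.66 CPM (log2 fold change 5.24, SE 0.79, adjusted p = 0.000106). Predicted genes, Gm16178 and Gm4869, completed the 10 largest higher differences.

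Of 20 genes listed for the caudal classes, 12 were tested, and 9 of these were lower in Sst nuclei and none higher (median -3.70). Synpr, the vesicle protein synaptoporin, was a member that was not called. It stood at 1036 and 784 CPM in Sst nuclei. Adarb2, an RNA-binding protein that marks these classes, was at 11.3 and 11.1 CPM in Sst nuclei and at 6049 and 7557 CPM in Vip, Lamp5 and Sncg nuclei (log2 fold change -9.13, SE 0.46, adjusted p = 2.03e-11); microglia stood at 57.3 and 46.4 CPM, above the Sst level. Prox1, a transcription factor of caudal interneurons, was at 2.51 and 0 against 152 and 218 CPM (log2 fold change -7.40, SE 0.70, adjusted p = 2.51e-07). Vip itself had no UMI in Sst nuclei and was at least 43.1-fold lower than in the pooled group, measured against 3 counts over both Sst sums (1.34 CPM). Under the same bound Megf10 was at least 41.9-fold and Frem2 at least 20.3-fold lower. The sorting receptor Sorcs3 was at 11.3 and 13.9 against 1023 and 1067 CPM (log2 fold change -6.22, SE 0.32, adjusted p = 2.03e-11), and the calcium-binding protein gene Necab1 at 1.26 and 1.39 against 213 and 210.2 CPM (log2 fold change -7.07, SE 0.56, adjusted p = 1.19e-08). Pde11a, Kcnk9 and Frem1 were also among the 10 largest lower differences. Subtracting an estimate of free RNA from each sum left 312 calls, and 13 of the 37 calls named with a test in this comparison were then lost, those of Cdh9, Frem2, Gad2, Grm7, Ifit1, Lama4, Lhx6, Megf10, Nr2f2, Pdyn, Reln, Sprr1a and Vip. That fit served all 3 comparisons. Its common biological coefficient of variation, a measure of the spread between sums, was 0.401, against 0.172 with the full sums. Whether calls were lost through smaller differences or through this wider spread was not tested. The call of Megf10 was also lost with DESeq2. The calls of Lhx6 and Nr2f2 were also lost when either the male or the female Sst sum was left out.

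**Figure D2:**
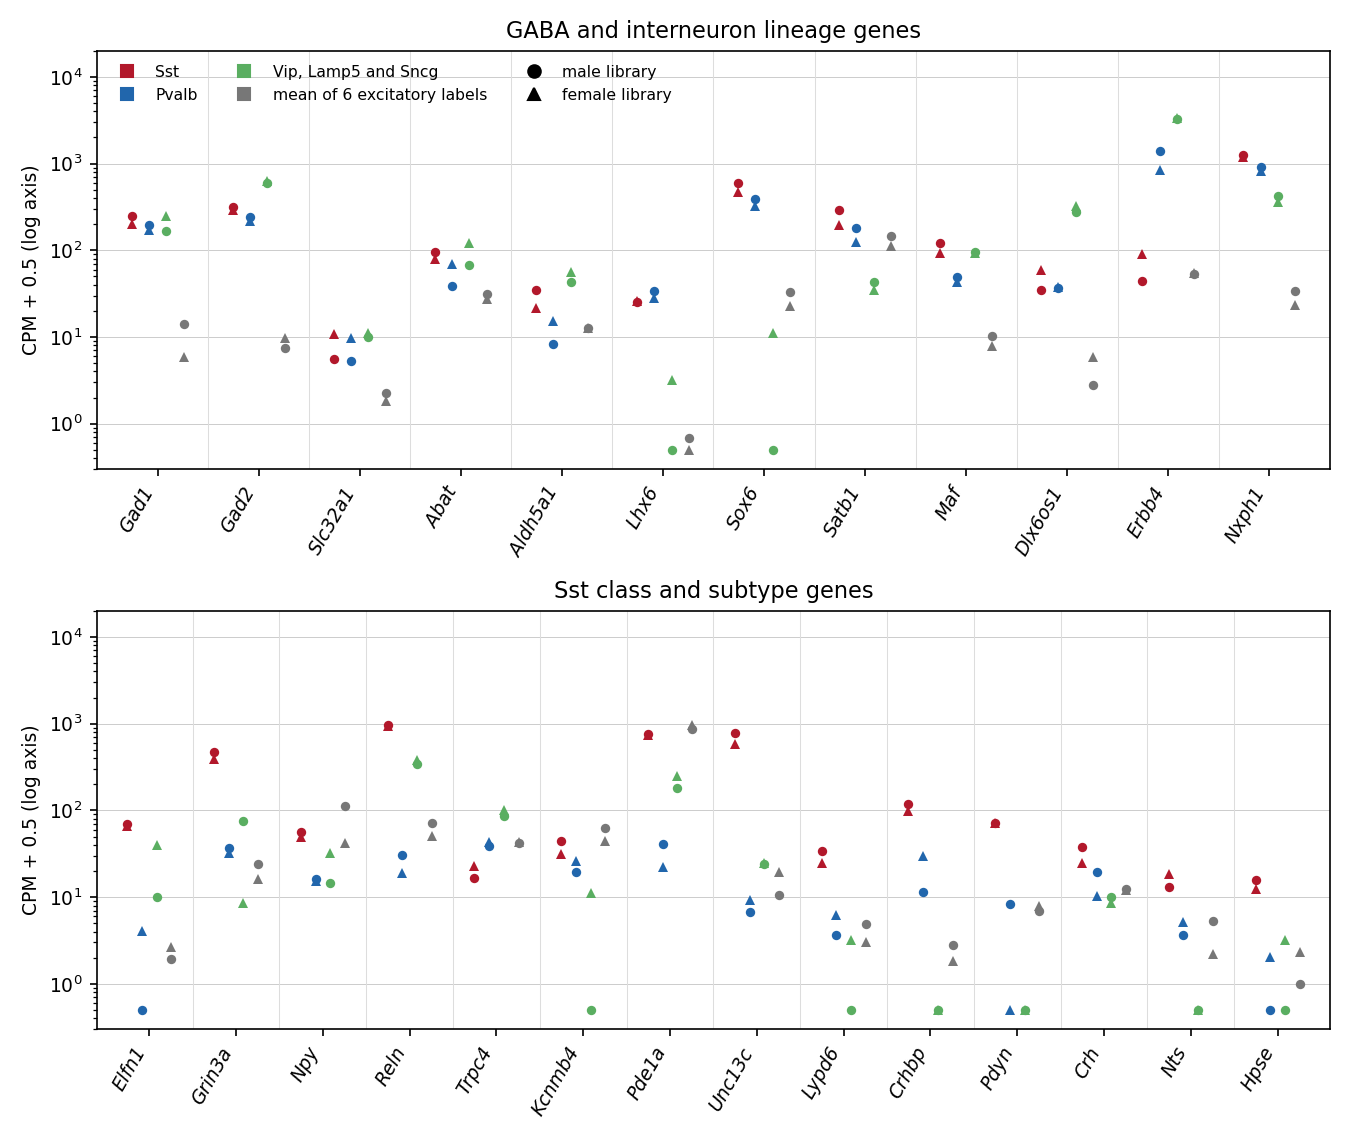
CPM plus 0.5 (log axis) of GABA and interneuron lineage genes (upper panel) and of Sst class and subtype genes (lower panel) in Sst (red), Pvalb (blue), pooled Vip, Lamp5 and Sncg (green) nuclei and the mean of 6 excitatory labels (grey), with circles for the male and triangles for the female library. Sox6 in Sst nuclei stands at 595 and 469 CPM near the Pvalb values and far from the green points, while Unc13c, at 789 and 583 CPM, stands apart from all 3 other groups.

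Against Pvalb nuclei, the closest class by origin, most tested lineage genes were not called while most tested Sst class genes were. The labels came from the same counts, and the lists were chosen with earlier results known, so this contrast is a description only. Here 680 genes were called (7.84%), 337 higher (3.88%) and 343 lower (3.95%) in Sst nuclei. Sox6 was at 389 and 323 CPM in Pvalb nuclei and was not called (log2 fold change 0.60, SE 0.22, adjusted p = 0.122), though with the library as a block it was (0.59, adjusted p = 0.00486, edgeR). Lhx6 at 33.1 and 27.9 CPM was not called either (log2 fold change -0.22, SE 0.46, adjusted p = 0.926). None of the 5 tested GABA genes was called by edgeR or DESeq2 (median 0.42, beside 0.02 over all genes), though 3 had an unadjusted p under 0.05 in edgeR. Among 11 lineage genes 2 were higher, Satb1 and Maf, and Erbb4 was lower. Maf, a transcription factor of interneurons from the medial eminence, was at 122 and 91.8 against 48.9 and 42.3 CPM (log2 fold change 1.24, SE 0.25, adjusted p = 0.00187). Erbb4 was at 1402 and 846 CPM in Pvalb nuclei (log2 fold change -3.97, SE 0.50, adjusted p = 8.72e-06), so that Sst nuclei were the lowest of the 3 interneuron groups.

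Of the 16 listed Sst class genes, 10 were tested, a set that leans towards genes high in Sst nuclei. Among these 10, 7 were higher than in Pvalb nuclei and none lower, with a median of 3.74. Unc13c was at 6.31 and 8.78 CPM in Pvalb nuclei (log2 fold change 6.37, SE 0.37, adjusted p = 3.64e-10), Reln at 30 and 18.6 CPM (log2 fold change 5.43, SE 0.35, adjusted p = 5.89e-10) and Pde1a at 41.0 and 21.7 CPM (log2 fold change 4.71, SE 0.33, adjusted p = 1.82e-09). For each of these genes both Pvalb values lay below both Sst values. Elfn1 was at 0 and 3.61 CPM in Pvalb nuclei (log2 fold change 4.60, SE 0.62, adjusted p = 3.35e-05) and Grin3a at 36.3 and 32.0 CPM (log2 fold change 3.68, SE 0.33, adjusted p = 7.59e-08). Outside the lists, Shisa6, an auxiliary protein of AMPA receptors, was at 235 and 201 against 4.73 and 3.1 CPM (log2 fold change 5.89, SE 0.41, adjusted p = 1.82e-09) and the G-protein regulator Rgs6 at 1554 and 1436 against 31.5 and 34.6 CPM (log2 fold change 5.48, SE 0.35, adjusted p = 5.89e-10). Synpr, which is on the list of the caudal classes, was at 1036 and 784 against 7.88 and 24.3 CPM (log2 fold change 5.56, SE 0.38, adjusted p = 1.82e-09), while Vip, Lamp5 and Sncg nuclei held 834 and 937 CPM. Timp3, an inhibitor of metalloproteinases, was at 46.5 and 49.4 against 0 and 1.03 CPM (log2 fold change 5.75, SE 0.71, adjusted p = 8.95e-06), and Lama4 completed the 10 with Pdyn and Cacna2d3, given below.

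Markers of the Pvalb class were lower in Sst nuclei for 5 of 11 tested and higher for none (median -0.94). Acan encodes aggrecan, the main proteoglycan of the nets around Pvalb cells, and was at 7.54 and 1.39 CPM in Sst and 254 and 222 CPM in Pvalb nuclei (log2 fold change -5.94, SE 0.48, adjusted p = 5.13e-08). The cell cortex gene Phldb2 was at 6.28 and 8.35 against 186 and 200.3 CPM (log2 fold change -4.63, SE 0.40, adjusted p = 6.77e-08), and Ndst3, a heparan sulphate enzyme, at 50.2 and 31.3 against 826 and 585 CPM (log2 fold change -4.12, SE 0.34, adjusted p = 2.82e-08). Tspan9, a membrane tetraspanin, was at 15.1 and 23.6 against 319 and 325 CPM (log2 fold change -3.96, SE 0.35, adjusted p = 5.66e-08). For these 4 genes the lowest Pvalb value was above the highest Sst value in both libraries. Syt2, the calcium sensor of fast release in Pvalb terminals, together with Wisp1, Palld, Trim45 and Zbtb7c, filled the remaining places among the 10 largest lower differences. Pvalb itself, like Sst, was almost uncounted, with 2 and 1 Sst nuclei and 1 and 1 Pvalb nuclei holding a UMI. With free RNA subtracted, 7 of the 30 calls named with a test against Pvalb nuclei were lost, those of Atf3, Cdh9, Grm7, Kcnip1, Maf, Mapk10 and Pdyn.

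Against the mean of the 6 excitatory labels, the tested GABA and lineage genes were higher in Sst nuclei nearly without exception. There were 1702 calls (19.6%), 971 higher (11.2%) and 731 lower (8.43%), and the median over all genes was 0.04. Gad1 was at 249.99 and 202 CPM against 13.7 and 5.40 CPM (log2 fold change 6.26, SE 0.32, adjusted p = 5.29e-12) and Gad2 at 319 and 289 against 6.95 and 9.28 CPM (log2 fold change 5.95, SE 0.19, adjusted p = 1.14e-15). All 5 tested GABA genes were higher, Abat and Aldh5a1, which break GABA down, with smaller differences (log2 fold change 1.73, SE 0.23, adjusted p = 7.79e-06, and log2 fold change 1.55, SE 0.37, adjusted p = 0.00394), and the call of Aldh5a1 was lost without the male Sst sum. Of the 11 lineage genes 10 were higher (median 4.68). Lhx6 was at 0.192 and 0 CPM in excitatory labels (log2 fold change 7.24, SE 0.70, adjusted p = 4.02e-07), and Sox6 at 32.9 and 22.0 CPM (log2 fold change 5.48, SE 0.19, adjusted p = 4.23e-15). Nxph1, a ligand of neurexins, was at 1259 and 1202 against 33.4 and 22.8 CPM (log2 fold change 6.01, SE 0.15, adjusted p = 5.53e-18). Erbb4, the member that was not called, was at 52.2 and 53.7 CPM in the excitatory mean (log2 fold change 1.06, SE 0.40, adjusted p = 0.0704). It was called with the library as a block (1.09, adjusted p = 0.0203, edgeR) and without the filter on low counts (1.13, adjusted p = 7.21e-06, edgeR). With only the 310 Sst nuclei of the main cluster, the Erbb4 difference was 0.42 and was not called (adjusted p = 0.56, edgeR).

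Of the 10 tested Sst class genes 6 were higher than in excitatory labels and none lower (median 3.54). Pde1a, at 864 and 962 CPM in excitatory labels, was not called (log2 fold change 0.02, SE 0.20, adjusted p = 0.976). Npy, the precursor of neuropeptide Y, stood at 56.5 and 49.4 CPM in Sst nuclei and at 111 and 41.2 CPM in the excitatory mean, a group for which it is not a usual marker (log2 fold change 0.20, SE 0.41, adjusted p = 0.804). Without the nuclei richest in microglial UMIs the Npy difference was 1.88 and was not called either (adjusted p = 0.0896, edgeR). Further genes among the 10 largest differences were Ptpn22, a phosphatase, at 107 and 118 against 6.63 and 5.6 CPM (log2 fold change 5.83, SE 0.32, adjusted p = 2.89e-11), and the intergenic noncoding RNA Gm41230 at 87.9 and 73.0 against 3.94 and 2.23 CPM. Of 14 tested genes of the excitatory classes 7 were lower and 4 higher (median -1.80). Cux2, known from upper-layer excitatory neurons and some interneurons, was higher at 271 and 326 against 145 and 143 CPM (log2 fold change 3.21, SE 0.20, adjusted p = 7.3e-11). That difference is taken from the mean of the log levels of the 6 labels, so it exceeds the ratio of the mean CPM.

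The 10 largest lower differences from excitatory labels were led by Kcnk9, a potassium leak channel at 0 and 0.695 against 28.1 and 34.7 CPM (log2 fold change -5.27, SE 0.78, adjusted p = 2.37e-05). Arpp21, a phosphoprotein of cyclic AMP signalling, was at 22.6 and 27.8 against 939 and 815 CPM (log2 fold change -4.82, SE 0.24, adjusted p = 1.54e-12), and the homeobox factor Meis2 at 1.26 and 6.26 against 104 and 97.7 CPM (log2 fold change -4.23, SE 0.60, adjusted p = 1.26e-05). The noncoding RNA Gm28928 was at 32.7 and 61.2 against 2186 and 1187 CPM (log2 fold change -4.31, SE 0.48, adjusted p = 4.62e-07). The others were Megf11, Scube1, Wnt7b, Id2, Gm26870 and Cdh6. Subtracting the free RNA estimate left 884 calls in this comparison and 246 in that with Pvalb nuclei, against 1702 and 680. Of the 31 calls named with a test against excitatory labels, 4 were then lost, those of Atf3, Jun, Kcnk9 and Stat3.

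**Figure D3:**
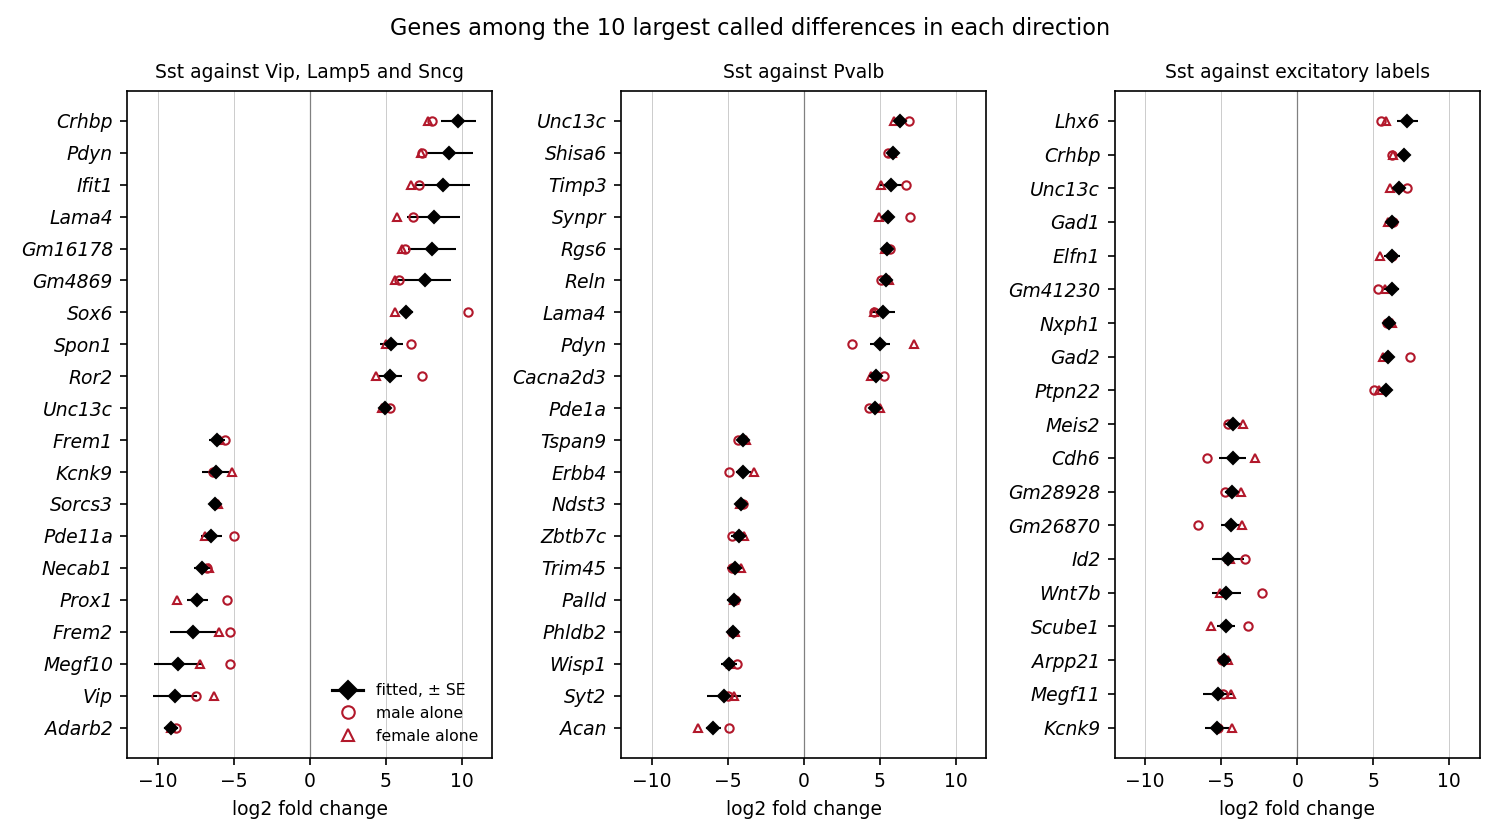
Log2 fold change of Sst nuclei against Vip, Lamp5 and Sncg nuclei, Pvalb nuclei and excitatory labels (3 panels) for genes among the 10 largest called differences in each direction; diamonds are the fitted values with their SE over both libraries, and open circles and triangles are the male and female library alone. Genes were shown only where both libraries had the same sign. The fitted values of Crhbp and Pdyn in the left panel lie beyond both, since one group held 0 UMIs.

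Within the class, the peptide genes below were each found in a minority of the nuclei, and markers of the long-range subtype were near 0. Whether this spread differed from that of sparse sampling was not tested. Pdyn, at chr2:129686565-129699844, was found in 38 of 174 male (21.8%) and 45 of 143 female nuclei (31.5%), and after thinning in 10.1% and 12.9%, beside 0.515% and 0.237% of microglia. Npy was found in 17.2% and 27.3%, and in 11.6% and 10.0% after thinning, beside 0% and 0.533% of microglia. Crh, corticotropin-releasing hormone, was found in 11.5% and 21.0%, and in 4.65% and 7.14% after thinning. Pdyn and Npy occurred in the same nucleus in 6 of the 38 and 8 of the 45 Pdyn nuclei (15.8% and 17.8%), beside 17.2% and 27.3% of all Sst nuclei with Npy. Among Npy nuclei, 7 of 30 (male, 23.3%) and 10 of 39 (female, 25.6%) also held Crh, beside 11.5% and 21.0% of all Sst nuclei. A UMI of Reln was present in 35 of 38 and 44 of 45 Pdyn nuclei (92.1% and 97.8%), beside 86.2% and 89.5% of all Sst nuclei. The neurotensin gene Nts was found in 9 and 16 nuclei, and Hpse, a heparanase that marks a layer IV subtype, in 6 and 14. For Hpse the thinned shares, 2.33% and 3.57%, were not above those of microglia, 3.09% and 5.21%.

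Chodl and Nos1 mark the long-range projecting subtype. Chodl had no UMI in either library, which allows levels of up to 3.77 CPM (male) and 2.09 CPM (female). Nos1, neuronal nitric oxide synthase, was at 0 and 1.39 CPM, against 14.2 and 18.6 CPM in Vip, Lamp5 and Sncg nuclei (log2 fold change -3.98, SE 1.19, adjusted p = 0.0386). Calb2, Th, Tac1 and Myh8, markers of other subtypes, also had no UMI. Of 17 listed subtype genes, 7 could be tested. Among these 7, Pdyn was higher and 3 were lower than in Vip, Lamp5 and Sncg nuclei (median -0.73, beside 0.05 over all genes). Over all genes 4.21% were higher and 4.77% lower than in the caudal classes. Against Pvalb nuclei these shares were 3.88% and 3.95%, and against excitatory labels 11.2% and 8.43%. Sema3e, an axon guidance ligand, was at 46.5 and 49.4 against 369 and 133 CPM (log2 fold change -2.18, SE 0.36, adjusted p = 0.000289). Nr2f2, a factor also typical of caudal interneurons, was at 6.28 and 2.78 against 42.6 and 21.3 CPM (log2 fold change -2.72, SE 0.80, adjusted p = 0.0369). Against Pvalb nuclei 1 of the 7 was higher and none lower (median 1.23), Pdyn at 7.88 and 0 CPM (log2 fold change 5.00, SE 0.67, adjusted p = 2.9e-05). Against excitatory labels Pdyn (6.49 and 7.42 CPM, log2 fold change 4.45, SE 0.46, adjusted p = 3.73e-07) and Crh (37.7 and 24.3 against 11.8 and 11.7 CPM, log2 fold change 2.20, SE 0.46, adjusted p = 0.00112) were higher and none lower (median 0.55).

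Genes of the injury response were next set beside those of the other neurons. The study displayed this panel on these samples, so its counts are not independent evidence of a direction. Atf3, at chr1:191170296-191218039, was at 158 and 186 CPM in Sst nuclei, 319 and 459.9 CPM in Pvalb nuclei, 118 and 216 CPM in Vip, Lamp5 and Sncg nuclei and 70.0 and 95 CPM in the excitatory mean, with microglia at 26.5 and 35.9 CPM. Both Sst values lay below both Pvalb values and above both excitatory values, and they overlapped with those of the caudal classes. The differences were called against Pvalb nuclei (log2 fold change -1.17, SE 0.34, adjusted p = 0.0341) and against excitatory labels (log2 fold change 1.29, SE 0.28, adjusted p = 0.00145) and not against the caudal classes (log2 fold change 0.08, SE 0.40, adjusted p = 0.962). The call against Pvalb nuclei was lost with DESeq2, after the free RNA estimate was subtracted, without the nuclei richest in microglial UMIs, and in each case where 1 Sst sum was left out. That against excitatory labels was lost without the female Sst sum and after the free RNA estimate was subtracted. A UMI of Atf3 was found in 21.7% and 32.9% of thinned Sst nuclei, 42.5% and 57.1% of Pvalb nuclei, and 5.15% and 5.92% of microglia.

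Ecel1, an endopeptidase gene induced by nerve injury, was found in more Sst nuclei than Atf3, in 41.1% and 61.4% after thinning, and was not called in any comparison, though with the library as a block it was called against excitatory labels (0.43, adjusted p = 0.0273, edgeR). It was at 261 and 393 CPM in Sst, 252 and 397 CPM in Pvalb and 212 and 342 CPM in excitatory nuclei (log2 fold change 0.02, SE 0.38, adjusted p = 1.0, and log2 fold change 0.42, SE 0.29, adjusted p = 0.379). Before thinning, a UMI of Atf3 or Ecel1 was present in 70.7% of male and 92.3% of female Sst nuclei, and both in 23.0% and 55.9%. Creb5, a transcription factor that binds cyclic AMP response elements, was lower in Sst nuclei in each comparison, at 47.7 and 41.0 CPM against 177 and 187 CPM in Pvalb nuclei (log2 fold change -2.04, SE 0.22, adjusted p = 1.21e-06), 118 and 106 CPM in the caudal classes (log2 fold change -1.25, SE 0.27, adjusted p = 0.00361) and 92.9 and 82.3 CPM in excitatory labels (log2 fold change -0.81, SE 0.20, adjusted p = 0.00462). No Sst value reached any of the others.

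Of the 17 tested panel genes, 5 were higher and 3 lower than in excitatory labels, 2 lower and none higher than in Pvalb nuclei, and 1 higher and 1 lower than in the caudal classes, where 19.6%, 7.84% and 8.98% of all genes were called. Nmnat2, an axon survival factor, was at 461 and 410.3 against 261 and 265 CPM in excitatory labels (log2 fold change 0.85, SE 0.14, adjusted p = 6.84e-05). Stat3, a cytokine signalling factor, was at 85.4 and 87.6 against 65.2 and 49.3 CPM (log2 fold change 0.85, SE 0.17, adjusted p = 0.000886), and microglia held more, 166 and 151 CPM. Htt, huntingtin, was at 251 and 206 against 176 and 170.2 CPM (log2 fold change 0.54, SE 0.13, adjusted p = 0.00499). Jun, a partner of Atf3, was lower at 59.0 and 52.2 against 114 and 180.4 CPM (log2 fold change -1.12, SE 0.29, adjusted p = 0.00811), as was Ddit3, the stress factor CHOP, at 61.6 and 42.4 against 168 and 124 CPM (log2 fold change -1.17, SE 0.30, adjusted p = 0.00699). Without the male Sst sum the calls of Htt and Jun were lost, and without the female one those of Stat3, Jun, Ddit3 and, in the same comparison, Creb5. The call of Ddit3 was also lost without the nuclei richest in microglial UMIs. Sprr1a, a growth-associated protein induced by axotomy, was the higher panel gene against the caudal classes, at 31.4 and 28.5 against 9.47 and 5.32 CPM (log2 fold change 2.19, SE 0.62, adjusted p = 0.0256), a call that DESeq2 did not make and that was lost when either Sst sum was left out. Sox11 and Ret, a transcription factor and a receptor of regenerating neurons, were at 211 and 186 and 96.7 and 94.6 CPM in Sst nuclei and were called in no comparison.

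**Figure D4:**
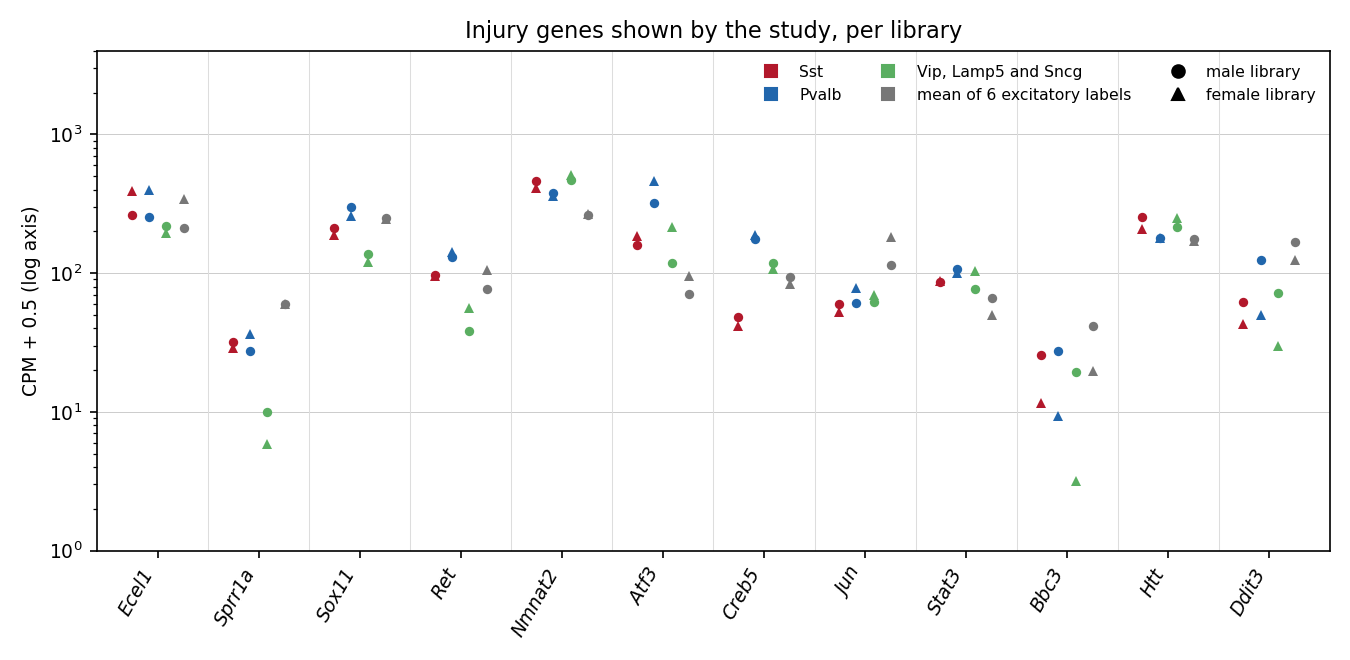
CPM plus 0.5 (log axis) of 12 injury genes of the study's panel in Sst (red), Pvalb (blue), pooled Vip, Lamp5 and Sncg (green) nuclei and the mean of 6 excitatory labels (grey), with circles for the male and triangles for the female library. Atf3 in Sst nuclei, at 158 and 186 CPM, lies between the Pvalb and excitatory values, and Creb5, at 47.7 and 41.0 CPM, is the lowest of the 4 groups.

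Stress and immediate early genes outside the panel gave no calls. None of 8 tested bZIP and immediate early genes and none of 14 of the integrated stress and unfolded protein response was called in any of the 3 comparisons at an adjusted p under 0.05 (edgeR), and at an unadjusted p under 0.05 the counts were 1 of 8 and 1 of 14 against the caudal classes, 3 and 2 against excitatory labels and 0 and 1 against Pvalb nuclei; DESeq2 called none either. Of 12 genes of apoptosis, none was called against the caudal classes (edgeR, 1 at an unadjusted p under 0.05, and none by DESeq2), Sesn1 was higher than in excitatory labels and Apaf1 was lower than in Pvalb nuclei. Of 14 genes of the DLK, JNK and SARM1 axon injury pathway, 3 were higher than in excitatory labels, 1 was higher than in Pvalb nuclei and none was called against the caudal classes (edgeR, 2 at an unadjusted p under 0.05, and none by DESeq2). Mapk10, the neuronal JNK, was called in both, at 662 and 654 CPM against 493 and 416 CPM (log2 fold change 0.78, SE 0.14, adjusted p = 0.00019) and 341 and 381 CPM (log2 fold change 0.88, SE 0.19, adjusted p = 0.00361), the latter lost without the female Sst sum and with free RNA subtracted. Of 20 regeneration genes, 6 were higher and 4 lower than in excitatory labels, 2 higher and 6 lower than in Pvalb nuclei, and 2 higher and 3 lower than in the caudal classes. Over all genes 11.2% were higher and 8.43% lower than in excitatory labels, 3.88% and 3.95% than in Pvalb nuclei, and 4.21% and 4.77% than in the caudal classes. Cacna2d1, a calcium channel subunit and the gabapentin target, changed sides, being lower in Sst nuclei (51.5 and 45.2 CPM) than in excitatory labels (452 and 396 CPM, log2 fold change -2.89, SE 0.19, adjusted p = 1.26e-10) and higher than in Pvalb nuclei (28.4 and 21.7 CPM, log2 fold change 1.01, SE 0.25, adjusted p = 0.0112), a call lost when either Sst sum was left out. Klf7, a transcription factor of axon growth, was at 93.0 and 98.8 against 293 and 282 CPM in Pvalb nuclei (log2 fold change -1.55, SE 0.19, adjusted p = 7.3e-06).

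Channel genes called against Pvalb nuclei were mostly higher in Sst nuclei, while the median over the channel list was 0.01, beside 0.02 over all genes. Of 31 tested channel genes, 10 were higher and 1 lower than in Pvalb nuclei, 6 and 6 against the caudal classes, and 9 and 5 against excitatory labels. Over all genes, 3.88% were higher and 3.95% lower than in Pvalb nuclei, 4.21% and 4.77% than in the caudal classes, and 11.2% and 8.43% than in excitatory labels. Cacna2d3, a calcium channel subunit, was at 1439.6 and 1221 against 37.8 and 55.7 CPM in Pvalb nuclei (log2 fold change 4.77, SE 0.26, adjusted p = 1.66e-10). Kcnd3, an A-type potassium channel, was at 492 and 439 against 136 and 111 CPM (log2 fold change 1.95, SE 0.22, adjusted p = 2.03e-06). Kcnip1, which binds A-type channels, was at 209 and 166 CPM, above Pvalb nuclei (74.1 and 44.9 CPM, log2 fold change 1.75, SE 0.26, adjusted p = 6.45e-05) and excitatory labels (8.96 and 6.84 CPM, log2 fold change 4.95, SE 0.24, adjusted p = 7.51e-13) and below the caudal classes (611 and 915 CPM, log2 fold change -1.97, SE 0.23, adjusted p = 3.66e-06), and the call against Pvalb nuclei was lost with free RNA subtracted. The M-current channel genes Kcnq3 and Kcnq5 went opposite ways against the caudal classes. Kcnq3 was at 2320.2 and 2006 against 753 and 447 CPM (log2 fold change 1.96, SE 0.22, adjusted p = 1.86e-06) and Kcnq5 at 111 and 96.0 against 597 and 1019 CPM (log2 fold change -2.90, SE 0.33, adjusted p = 1.86e-06). Kcnt2, a sodium-activated potassium channel, was lower than in the caudal classes (21.4 and 13.2 against 213 and 194 CPM, log2 fold change -3.52, SE 0.31, adjusted p = 5.39e-08).

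Receptor genes differed in both directions. Of 35 tested receptor genes, 7 were higher and 6 lower than in Pvalb nuclei, 3 and 9 against the caudal classes, and 9 and 8 against excitatory labels, where 7.84%, 8.98% and 19.6% of all genes were called. Of the 9 below the caudal classes, 6 encode GABA-A subunits, 2 glutamate receptors and 1 an acetylcholine receptor. Grm7, a presynaptic metabotropic glutamate receptor, was at 3588 and 2983 CPM against 559.8 and 289 CPM in Pvalb nuclei (log2 fold change 3.0, SE 0.25, adjusted p = 3.73e-08) and 1023 and 1035 CPM in the caudal classes (log2 fold change 1.76, SE 0.24, adjusted p = 2.48e-05), and both calls were lost with free RNA subtracted. Grik1, a kainate receptor subunit, was at 362 and 324 against 32.8 and 19.7 CPM in excitatory labels (log2 fold change 4.19, SE 0.26, adjusted p = 3.83e-11), and Grik3, another, at 211 and 231 against 4.74 and 16.0 CPM in the caudal classes (log2 fold change 4.30, SE 0.48, adjusted p = 1.79e-06). Chrm3, a muscarinic acetylcholine receptor, was at 1435 and 1487 against 410.0 and 364 CPM in Pvalb nuclei (log2 fold change 1.94, SE 0.21, adjusted p = 9.51e-07). Gabrb2, a GABA-A receptor subunit, was at 67.8 and 62.6 CPM, below Pvalb nuclei (388 and 305 CPM, log2 fold change -2.37, SE 0.22, adjusted p = 1.21e-07), the caudal classes (341 and 216 CPM, log2 fold change -1.96, SE 0.24, adjusted p = 4.4e-06) and excitatory labels (285 and 261 CPM, log2 fold change -1.88, SE 0.19, adjusted p = 1.17e-07).

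Adhesion and synapse genes, 24 of them tested, were higher and lower in 6 and 3 cases against Pvalb nuclei, 2 and 6 against the caudal classes and 8 and 7 against excitatory labels, beside the same 7.84%, 8.98% and 19.6% of all genes in either direction. The cadherins Cdh13 and Cdh9 were higher in Sst nuclei in all 3. Cdh13 was at 1148 and 999 CPM against 109 and 136 CPM in Pvalb nuclei (log2 fold change 3.12, SE 0.34, adjusted p = 1.27e-06), 56.8 and 77.2 CPM in the caudal classes (log2 fold change 4.04, SE 0.41, adjusted p = 4.14e-07) and 137 and 173 CPM in excitatory labels (log2 fold change 3.32, SE 0.21, adjusted p = 7.96e-11). Cdh9 was at 290.2 and 267 CPM against 36.3 and 20.1 CPM (log2 fold change 3.44, SE 0.29, adjusted p = 4.25e-08), 28.4 and 50.6 CPM (log2 fold change 2.81, SE 0.34, adjusted p = 3.8e-06) and 18.1 and 10.9 CPM (log2 fold change 4.97, SE 0.21, adjusted p = 1.03e-13). With free RNA subtracted its calls against Pvalb nuclei and the caudal classes were lost. Ptprd, a presynaptic receptor phosphatase, was lower than in excitatory labels (496 and 296 against 5481 and 4217 CPM, log2 fold change -3.35, SE 0.25, adjusted p = 8.57e-10). Of 11 neuropeptide and receptor genes, 1 was higher and 3 lower against Pvalb nuclei and against excitatory labels, and 3 were lower against the caudal classes, with the same shares over all genes. Ntrk3, the receptor of neurotrophin 3, was among the lower ones each time, at 44.0 and 57.7 CPM against 304 and 350.0 CPM (log2 fold change -2.64, SE 0.33, adjusted p = 7e-06), 398 and 516 CPM (log2 fold change -3.05, SE 0.34, adjusted p = 1.79e-06) and 262 and 213 CPM (log2 fold change -1.97, SE 0.29, adjusted p = 1.81e-05). Oprm1, the mu opioid receptor, was the member higher than in Pvalb nuclei, at 20.1 and 14.6 against 0 and 2.58 CPM (log2 fold change 3.07, SE 0.63, adjusted p = 0.0024).

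**Figure D5:**
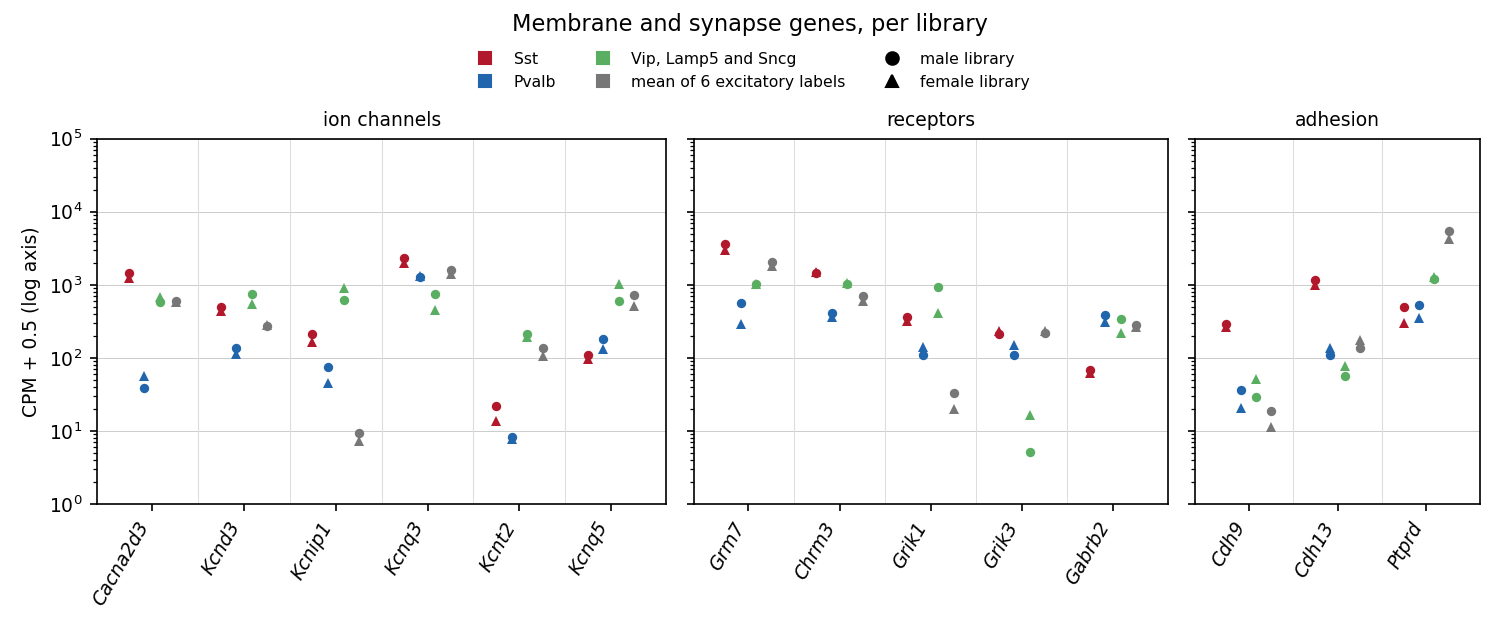
CPM plus 0.5 (log axis) of channel, receptor and adhesion genes (3 panels) in Sst (red), Pvalb (blue), pooled Vip, Lamp5 and Sncg (green) nuclei and the mean of 6 excitatory labels (grey), with circles for the male and triangles for the female library. Cacna2d3, Grm7 and Cdh13 stand highest in Sst nuclei, and Gabrb2 lowest.

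Sst nuclei with and without a UMI of Atf3 were compared within each library, with the library as a term. In the male library 59 nuclei held one and 115 did not, with median depths of 4822 and 3386 UMIs, and in the female library 83 and 60, with 10965 and 6924. Of 5770 genes 13 were called (0.225%), 5 higher and 8 lower in nuclei with Atf3, and they were named here after their values were seen. Pcdh11x, a protocadherin, was at 362 CPM with and 209 CPM without Atf3 in the male and at 805 and 275 CPM in the female library (log2 fold change 1.26, SE 0.19, adjusted p = 0.00838). Cdk6, a cell cycle kinase, was at 237 and 90.8 CPM and at 132 and 42.1 CPM (log2 fold change 1.54, SE 0.25, adjusted p = 0.010). The other higher genes were Galnt18, Asic2 and Myo10. Of the 8 lower genes 6 were mitochondrial, with mt-Co3 at 385 and 615 CPM in the male and at 145 and 496 CPM in the female library (log2 fold change -1.19, SE 0.21, adjusted p = 0.0145), and the others were Vsnl1 and Tmtc2. Mitochondrial UMIs made up 0.229% of the sum with Atf3 and 0.352% without it in the male library, and 0.0873% and 0.297% in the female one. Ecel1 was at 269 and 256 CPM and at 409.8 and 361 CPM (log2 fold change 0.18, SE 0.18, adjusted p = 0.943). None of the 13 calls held with DESeq2, without the library term (both 0 calls, with 30 and 265 genes at an unadjusted p under 0.05) or after thinning to 2300 UMIs (0 calls and 211 genes).

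Between the libraries, the Sst sums were alike for most genes. Of 6103 genes with at least 20 CPM in 1 of them, 71 were over 2-fold higher in the female and 227 in the male sum (4.88% in all), with no test possible for 1 library per sex. Spon1 (44.0 and 90.4 CPM) and Erbb4 (44.0 and 89.7 CPM) were higher in the female sum, and Bbc3, an apoptosis gene of the panel, in the male sum (25.1 and 11.1 CPM).

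RNA of other cells was present in the Sst sums. The microglial list, with 11 of its 12 genes above 0, summed to 476 and 853 CPM in Sst nuclei, within the range of the other neuron labels (325 to 894 in the male and 720 to 1649 in the female library) and far below microglia themselves (8131 and 7973 CPM). None of its 6 tested genes was called in any comparison by edgeR or DESeq2, and none had an unadjusted p under 0.05 in edgeR. Summed levels were 23.9 and 25.7 CPM for astrocyte, 94.2 and 61.9 CPM for oligodendrocyte, 1.26 and 4.87 CPM for oligodendrocyte precursor and 13.8 and 13.9 CPM for vascular genes. Both tested astrocyte genes were lower than in the caudal classes and 1 of them than in excitatory labels. Of 2 tested oligodendrocyte genes 1 was higher than in the caudal classes and in Pvalb nuclei, and the precursor gene tested was lower than in the caudal classes. Scaled by the microglial list, free RNA could account for at most 18.2% of the male and 29.4% of the female Sst sum. No doublet caller was run here. Adarb2, a marker of the caudal classes, was found in 9 male (5.17%) and 16 female Sst nuclei (11.2%), below its shares in microglia (7.57% and 13.7%), and the part of doublets or free RNA in this was not tested.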

How the data were processed

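Nuclei of 2 libraries, pooled from 4 animals each, were grouped by the deposited subclass label. The authors aligned reads with Cell Ranger (3.1.0 in the submitters' processing notes, with other versions in the file headers) to a GRCm38 pre-mRNA reference, and deposited UMI counts per gene and barcode. The deposited metadata table gives the percent of mitochondrial UMIs per nucleus, the clusters and the labels, which the authors made with Seurat. A deposited matrix of SCT-corrected values was not used, and no doublet caller was run. Depth was 11007366 UMIs over 4044 called barcodes in the male and 23202343 over 4214 in the female library.

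Counts were summed per library and group (18 sums, 9 groups) and fitted with edgeR 4.0.16 (TMM factors, filterByExpr, quasi-likelihood test, Benjamini-Hochberg adjustment over 8676 genes) in R 4.3.3, with DESeq2 1.42.0 as an alternative. The reporter feature was left out of the tests, and Atf3 was left out of the comparison of Sst nuclei with and without it. The common biological coefficient of variation was 0.172. Intervals are exact binomial ones at 95% (scipy 1.17.1) and cover counting error only. Sums of one library came from one pool of animals, so the library pairs them: differences between the libraries in Sst nuclei correlated with those in the other labels at 0.0703 to 0.323 over 8676 genes. The study names no test between subclasses, and the library was not in the model.

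Genes named are the 10 largest called differences in each direction of a comparison, with the same sign in both libraries and at least 20 CPM, any member of the GABA, lineage, Sst class, Sst subtype and injury lists, and up to 4 called members with the smallest adjusted p of each other list, and some of these genes are not reported here. The 23 lists and the members were chosen with earlier results of these data known. The fit was tested on simulated counts. All counts were drawn anew from the same mean share in every group, at a fixed dispersion, and some genes were then changed in the Sst sums. The real spread of each gene and the real differences between groups were not in these data. Of genes changed by 2 on the log2 scale, 65.7% were recovered against Vip, Lamp5 and Sncg nuclei, 85.1% against Pvalb nuclei and 92.5% against excitatory labels. Of those changed by 1, the shares were 11.9%, 37.3% and 64.2%. Alternatives tried were DESeq2, no filter, the library as a block, subtraction of ambient RNA (the profile of barcodes with at most 100 UMIs), 1 cluster only, the study's limits on nuclei, Vip nuclei only, separate excitatory labels, and thinning. Removal of nuclei rich in microglial UMIs and of 1 Sst sum were chosen after seeing the data.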

Additional observations from a re-analysis of the deposited data

How the results depend on the processing

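Of the 100 calls of named genes, 96 held with DESeq2, 100 without the filter, 100 with Sst nuclei of one cluster only and 100 without nuclei over the study's limits, 31 of 31 with each excitatory label on its own, 33 of 35 with Vip nuclei only and 94 without the nuclei richest in microglial UMIs. Without the filter, 1 further named difference was called, that of Erbb4 against excitatory labels. Subtraction of ambient RNA kept 74 of 98, in a fit with a common biological coefficient of variation of 0.401, against 0.172 for the full sums. With the library as a replicate block, which pairs the sums, all 100 were kept, 3 further named differences were called (Sox6 against Pvalb nuclei, Erbb4 and Ecel1 against excitatory labels) and 1050, 2254 and 1016 genes were called against Vip, Lamp5 and Sncg nuclei, excitatory labels and Pvalb nuclei.

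With ambient RNA subtracted, 312 genes were called against Vip, Lamp5 and Sncg nuclei (134 higher, 178 lower), 884 against excitatory labels (556 and 328) and 246 against Pvalb nuclei (126 and 120). Most of them were calls of the full sums (294, 867 and 243). With 1 Sst sum left out, chosen after seeing the data, the counts were 467 to 541 (197 to 228 higher, 270 to 313 lower), 916 to 1143 (545 to 653 and 371 to 490) and 389 to 429 (219 to 227 and 170 to 202), with fewer samples. The single Sst sum was then assumed to vary like the other groups. Within Sst nuclei, the 13 genes that went with Atf3 became 0 with DESeq2, 0 with no replicate block, 0 after thinning and 32 without the filter, 12 of them shared, and the cause was not tested. The mean share of Sst nuclei among neurons, 12.3%, was 13.0% over nuclei with at least 2300 UMIs, and 11.9% to 12.6% with 1 library left out. The mean share with an Sst UMI, 0.862%, was 0.775% after thinning and 0% to 1.72% with 1 library left out.

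Genes that were not called and changed sign were Atf3 against Vip, Lamp5 and Sncg nuclei (-0.11 with Vip nuclei only and without the nuclei richest in microglial UMIs, -0.13 to 0.63 with 1 library or Sst sum left out), Npy against excitatory labels (-0.012 with each label on its own, 1.88 without the nuclei richest in microglial UMIs), Pde1a against excitatory labels (-0.024 with DESeq2, -0.018 without the nuclei richest in microglial UMIs, -0.028 with ambient RNA subtracted, -0.0077 to 0.24 with 1 library or Sst sum left out) and Ecel1 against Pvalb nuclei (-0.0035 without the filter, -0.0020 in one cluster, -0.39 to 0.31 with 1 library or Sst sum left out). Leaving out nuclei with 2 or more microglial UMIs could not be fitted, because it emptied L5 IT and L6 CT in the female library. Among the fitted groups, depth limits L5 IT most, where 3 counts equal 10.46 CPM, and then the pooled Vip, Lamp5 and Sncg group, at 5.11 CPM.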
